A study of Mus musculus with 16 samples.

Results

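The comparison described here was that between differentiating mouse embryonic stem cells treated for 24 h with the MeOH eluate and those treated for 24 h with the whole extract from which the eluate was prepared. It rested on the 3 samples titled MeOH 24h and the 3 titled WS1442 24h, which are 6 of the 16 samples of the series. WS1442 is a dry ethanolic extract of hawthorn (Crataegus) leaves and flowers and was given at 0.25 mg/mL. The MeOH eluate is the fraction of WS1442 that methanol washes from a Sephadex LH-20 column, is rich in oligomeric procyanidins, and was given at 0.1 mg/mL. The treatments thus differed in composition and in dose, and a difference between them cannot be assigned to either. All cells were CGR8 cells that carry a green fluorescent reporter driven by the promoter of the cardiac myosin gene Myh6, so all groups share that transgene and derive from 1 line. They differentiated on gelatine without LIF, the cytokine that keeps mouse embryonic stem cells undifferentiated, and were treated from day 4. Values are also quoted from 2 samples given the vehicle DMSO for 24 h, and from 3 samples per agent treated for 6 h. RNA was measured on 1-colour Agilent arrays, 1 per sample, and levels are log2 intensities. The study's methods speak of independent biological replicates for its data in general, a description that asks for more replicates than the DMSO groups have. The labels do not say whether the arrays of a group came from separate cultures, so the p-values measure the spread between these samples, which may be technical.

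Procyanidins are chains of catechin units that plants accumulate as tannins, and they bind proteins and metal ions readily. Embryonic stem cells that lose LIF leave pluripotency, pass through a primitive streak-like state and form mesoderm, from which endothelial, blood and heart muscle precursors arise. Mesp1 marks the early cardiovascular mesoderm, Etv2 and Tal1 direct the endothelial and blood branches, and Gata4, Gata6, Isl1 and the T-box genes act in the heart branch, ahead of the sarcomere genes. BMP, FGF, Wnt and Nodal signals set these choices.

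Between 55.1% and 59.1% of the gene spots were well above background, and pairs of arrays correlated at 0.995 to 0.997 within a group and at 0.991 to 0.995 between the groups, across genes. The incorporation of the Cy3 dye was 31.8, 32.8 and 32.3 pmol/µg for WS1442 and 30.3, 28.2 and 27.1 pmol/µg for the MeOH eluate. The 75th percentile of the scanner intensity was 234 to 253 with WS1442 and 185 to 215 with MeOH eluate before normalization. Neither measure overlapped between the groups at 24 h. Dye incorporation and treatment therefore cannot be told apart, and with Cy3 incorporation as a covariate no gene passed an adjusted p of 0.05 in limma, while 1734 passed an unadjusted p of 0.05 and the median standard error grew from 0.0923 to 0.201. At 6 h, Cy3 incorporation did overlap, at 26.5 to 27.6 against 24.7 to 29.5 pmol/µg. The 75th percentile of the intensity did not, at 231 to 253 with WS1442 and 200 to 209 with MeOH eluate. The RNA integrity number was 8.6 for WS1442 replicate 2 and 9.7 to 10 for the other 5 samples. All 6 arrays lay on 1 slide, where a first and a second number give the place of an array. The second number was 2, 2 and 3 for WS1442 and 3, 4 and 4 for MeOH eluate, so it nearly followed the treatment. Only the first number was used as a block for slide position, and the part of the second was not tested.

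The cultures held transcripts of several germ layers with both treatments. All 5 pluripotency markers, all 6 streak and mesoderm markers and all 6 cardiac progenitor markers were well above background on every one of the 6 arrays. Of the 6 cardiomyocyte markers 5 were, while Myh6, the gene of the reporter, was not on any of them. Neither were Emcn, Ttr, Apoa1, Elf5, Tfap2c and Adgre1, so that endothelial, endodermal, trophoblast and macrophage markers were present in part. Transcripts of several cell types were thus measured together.

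Of 26437 genes tested, 2289 were higher with MeOH eluate than with WS1442 and 2473 were lower at an adjusted p under 0.05 (limma with Benjamini-Hochberg adjustment), which is 8.66% and 9.35% of those tested. Most of these differences were small. A difference over 2-fold in addition was met by 19 higher genes (0.0719%) and 34 lower genes (0.129%), a share of 35.8% higher among the 53. With 1 replicate left out, the 53 became between 32 (without WS1442 replicate 3) and 82 (without MeOH eluate replicate 2), and with another background correction (normexp) 9 lower and 0 higher genes passed. The share of higher genes depended on single arrays, at 51% (26 higher and 25 lower) without WS1442 replicate 2 and 20% (8 and 32) without MeOH eluate replicate 3. The 95% confidence interval of the difference lay within 2-fold in both directions for 25497 genes. The median difference over all genes was -0.02 on the log2 scale. In whole cultures, fewer cells of a type and less RNA per cell cannot be told apart. The number of called genes fell to 1689 without WS1442 replicate 3, to 2237 without MeOH eluate replicate 3, to 2919 without WS1442 replicate 2 and to 3093 without MeOH eluate replicate 2.

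**Figure D1:**
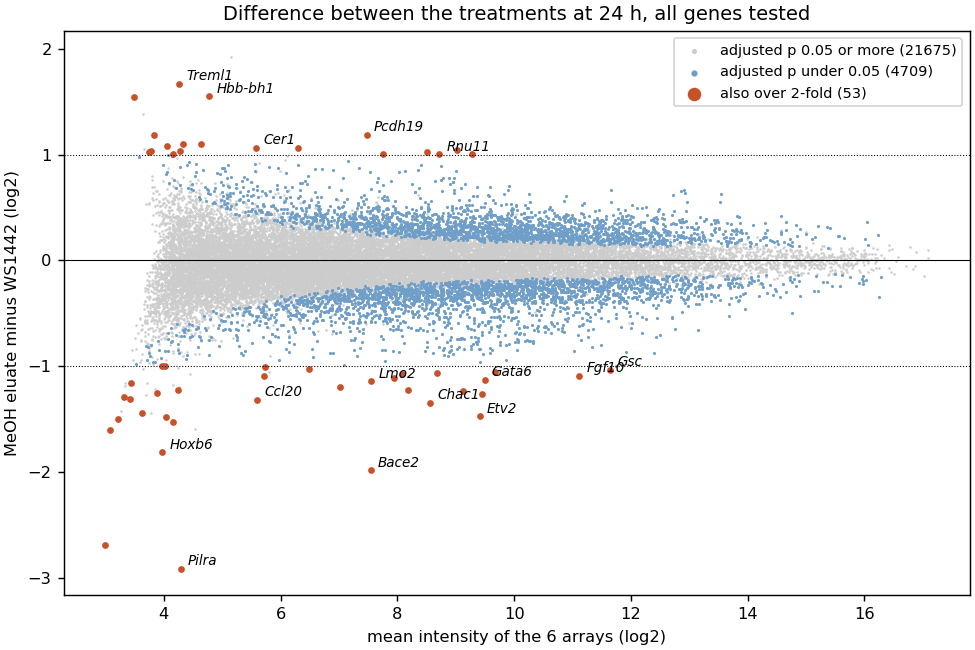
Difference between MeOH eluate and WS1442 at 24 h (log2, vertical) against the mean intensity of the 6 arrays (log2, horizontal), 1 point per gene tested. Grey points have an adjusted p of 0.05 or more, blue points one under 0.05, and the 53 orange points also differ over 2-fold (dotted lines); many of the latter lie at low intensity.

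Among the genes past both limits, those with the largest differences included an inhibitory receptor, a protease, a blood and endothelial regulator and a chemokine. Bace2, a protease related to β-secretase, read 8.52, 8.47 and 8.62 after WS1442, far above the 6.67, 6.56 and 6.41 after MeOH eluate. The difference was -1.98 ± 0.089 (SE, n = 3 and 3; adjusted p = 1.61e-05), with 9.15 and 9.06 in the DMSO cultures. Pilra, an inhibitory immunoglobulin-like receptor of myeloid cells, was at 5.77, 5.78 and 5.68 with WS1442 and was never well above background with MeOH eluate, which makes it at least 3.69-fold lower (adjusted p = 0.000234). The DMSO cultures had Pilra levels of 5.97 and 6.22, close to those with WS1442.

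Etv2, the ETS factor that starts the endothelial and blood programmes, read 10.10, 10.20 and 10.14 with WS1442, 8.70, 8.85 and 8.46 with MeOH eluate, while the DMSO samples read 11.24 and 11.13. It was 2.78-fold lower with MeOH eluate than with WS1442 (log2 difference -1.47 ± 0.090, adjusted p = 8.49e-05). Chac1, which degrades glutathione and is a target of the stress factor ATF4, read 9.11, 9.30 and 9.29 with WS1442 against 7.97, 8.13 and 7.57 with MeOH eluate, 2.54-fold lower (adjusted p = 0.000544). For both genes the DMSO cultures were above both treatments. That the treatments did not overlap was part of the rule by which these genes were named.

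Ccl20, a chemokine, was 2.49-fold lower with MeOH eluate (4.77, 5.03 and 5.00 against 6.26, 6.21 and 6.29; adjusted p = 0.000544), and here the DMSO cultures at 5.21 and 5.43 lay near the MeOH eluate. Hoxb6, a trunk Hox gene, was at 4.90, 4.77 and 4.97 with WS1442 and at 2.82, 4.02 and 2.36 with MeOH eluate (adjusted p = 0.0105), where 1 of 3 arrays was well above background. Tlx2, a homeobox gene, was at least 2.08-fold lower (adjusted p = 0.00241). For Ahsp, which stabilizes α-haemoglobin, and Cdh5, the adhesion protein VE-cadherin of endothelial cells, the bounds were at least 1.39-fold and 1.16-fold lower (adjusted p = 0.00501 and 0.0123). Nell2, Nxf7 and Tktl2 completed the 12 largest in this direction. With MeOH eluate the probe of Tktl2 was well above background on 1 array and those of Nell2 and Nxf7 on none. The p-values of these genes and of Hoxb6, Tlx2, Ahsp and Cdh5 set WS1442 against readings at or near background and are no support, as said below.

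In the other direction 9 genes with a usual symbol passed both limits. Pcdh19, a protocadherin that joins cells, read 7.05, 6.71 and 6.87 with WS1442 and 8.23, 8.09 and 7.87 with MeOH eluate, 2.28-fold higher (adjusted p = 0.000602), above 5.68 and 5.42 with DMSO. Hbb-bh1, an embryonic β-globin, read 3.82, 3.98 and 4.21 against 5.66, 6.31 and 4.70 (adjusted p = 0.0138), which is the opposite direction to Ahsp. Cer1, a secreted inhibitor of Nodal and BMP, was 2.09-fold higher (5.10, 5.15 and 4.87 against 6.28, 6.23 and 5.80; adjusted p = 0.00305), and the DMSO cultures at 6.03 and 6.25 were near the MeOH eluate. Rnu11, an RNA of the minor spliceosome, was 2.01-fold higher (adjusted p = 0.00155).

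Inhba, a subunit of activin, and Casp4, an inflammatory caspase, were never well above background with WS1442 and were at least 1.69-fold and 1.88-fold higher with MeOH eluate (adjusted p = 0.00884 and 0.00879). Treml1, Nkain3 and Vwde were well above background on 1 of the 3 WS1442 arrays and on all 3 MeOH eluate arrays. Of the 53 genes past both limits, 12 were never well above background in the lower group. Such genes, among them Inhba, Casp4, Pilra, Tlx2, Ahsp and Cdh5, were tested because of the group in which they were high. Their p-values set it against readings at background, so they give no support beyond the bound. Others had a probe that was well above background on only part of the arrays of the lower group or on none, as Hoxb6, Tktl2, Nxf7, Treml1, Nkain3 and Vwde. They too were tested because of the group in which they were high, and their p-values give no support either. With all 6 arrays required to be well above background, 29 genes passed both limits.

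**Figure D2:**
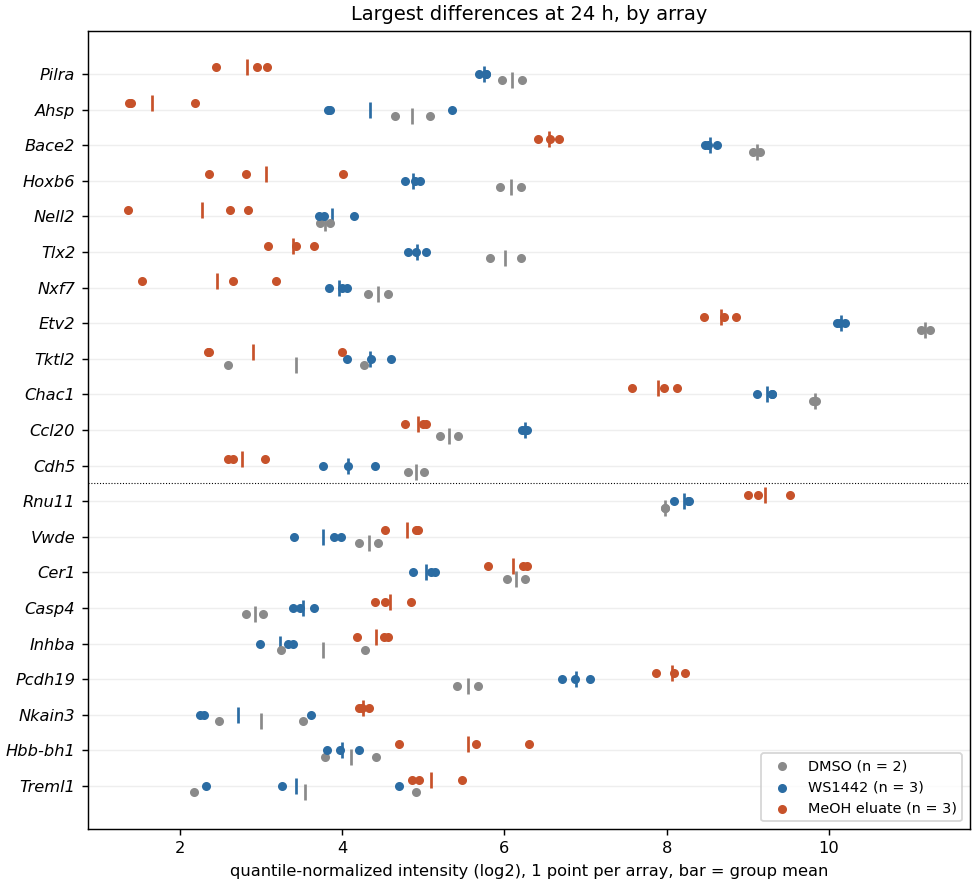
Quantile-normalized log2 intensity (horizontal) of the 12 genes most lower and the 9 most higher with MeOH eluate, 1 point per array and a bar at each group mean, for DMSO (grey, n = 2), WS1442 (blue, n = 3) and MeOH eluate (orange, n = 3) at 24 h. For Bace2 the WS1442 arrays read 8.47 to 8.62 and the MeOH eluate arrays 6.41 to 6.67, while several genes below an intensity of 4 spread widely within a group.

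The transcription factors of heart development were lower with MeOH eluate where they differed, apart from 1. Of 20 tested, 6 were lower, 1 was higher and 13 did not pass. Their median difference was -0.22, against -0.02 over all genes tested. Gata6, a factor of early heart and endoderm, read 10.02, 9.99 and 10.16 with WS1442 and 9.18, 9.0 and 8.61 with MeOH eluate, a difference of -1.13 ± 0.123 (SE; adjusted p = 0.00111). Fgf10, a growth factor of the second heart field kept in this list, differed by -1.09 ± 0.085 (11.66, 11.57 and 11.75 against 10.72, 10.63 and 10.37; adjusted p = 0.000315). Isl1, the LIM homeobox factor of the same field, differed by -0.91 (7.82, 7.60 and 7.89 against 7.02, 6.93 and 6.63; adjusted p = 0.00184), and the DMSO cultures at 7.49 and 7.37 lay between both treatments. Tbx3, a T-box repressor of the conduction system, differed by -0.61 (adjusted p = 0.000764). Gata4 differed by -0.66 (adjusted p = 0.00552). Over the 6 cardiac progenitor markers, of which 2 passed, the mean log2 level was 6.95 to 7.08 in the WS1442 samples and 6.48 to 6.70 in the MeOH eluate samples. The means did not overlap either for streak and mesoderm, cardiomyocyte, endothelial and endoderm markers, also lower with MeOH eluate. In these classes 2, 2, 2 and 1 markers passed. Pluripotency means were higher (7.98 to 8.20 against 7.75 to 7.94), but none of these markers passed. The endothelial mean held Cdh5, dim with MeOH eluate, while Pecam1 and Tek read higher by 0.14 and 0.20 without passing. Myh6, Emcn, Ttr and Apoa1, never well above background, entered these means too. How often groups did not overlap over all genes was not counted. The class means overlapped for blood, neuroectoderm, trophoblast and macrophage markers. Among the 20 factors, Mesp2, a relative of Mesp1 that acts in segmentation, was the higher gene (0.44, adjusted p = 0.0227).

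Other cardiovascular factors did not pass the test, and the interval of the difference says how far apart they could be. It was -0.49 to 0.15 for Nkx2-5, -0.05 to 0.41 for Mesp1, -0.51 to 0.05 for Tbx5 and -0.55 to -0.10 for Mef2c (adjusted p = 0.0534) on the log2 scale, so a difference of 2-fold lay outside each. In all, 15 of the 20 tested factors had an interval within 2-fold.

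Sarcomere and smooth muscle genes differed little and in both directions. Of 26 tested, 6 were higher and 2 lower, with a median difference of 0, and 2 were higher without WS1442 replicate 3 and without MeOH eluate replicate 3. The mean of 4 smooth muscle markers was 11.39 to 11.53 with WS1442 and 11.55 to 11.66 with MeOH eluate. Tagln and Cnn1 passed, while Acta2 (0.15) and Myh11, which read lower (-0.23), did not. The call of Cnn1 was lost in 11 of 21 alternatives, and its sign changed in 1 more. The part of either marker class in these results was not tested. Myl7, the atrial regulatory light chain, was lower at 7.63, 7.57 and 7.28 against 8.25, 8.31 and 8.48 (difference -0.85, adjusted p = 0.00167), both below the 9.37 and 9.66 of the DMSO cultures. Unc45b, a myosin chaperone, and Myl2, the ventricular light chain, were higher by 0.55 and 0.30 (adjusted p = 0.00514 and 0.0223), as were Tpm1, Tagln and Cnn1 by 0.26, 0.20 and 0.36. The calcium channel gene Ryr2 was lower, at -0.39 (adjusted p = 0.0232). For Tnnt2 and Actc1 the intervals were -0.38 to 0.07 and -0.16 to 0.21.

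The endothelial and blood lists held few members that differed, to be read beside the 9.35% lower and 8.66% higher of all genes tested. Of 18 endothelial genes tested 3 were lower and none higher (median -0.10): Etv2 and Cdh5 as above, and the receptor gene Tie1 (-0.52, adjusted p = 0.0493). The call of Tie1 was lost in 16 of 21 alternatives (-0.65 to -0.15), and the p-value of Cdh5 gives no support, as said above. With both groups required to be well above background, which leaves out Cdh5, 2 of 14 were lower. Kdr, the VEGF receptor of early mesoderm, had an interval of -0.26 to 0.04 and Pecam1 one of -0.11 to 0.39. Of 14 blood genes 2 were lower and 1 higher (median -0.13), which is near the shares of all genes tested. Lmo2, the bridging protein that Tal1 works with, read 8.16, 8.03 and 8.17 with WS1442 and 7.09, 6.99 and 6.84 with MeOH eluate (difference -1.14 ± 0.088, adjusted p = 0.0003), and Tal1 differed by -0.69 (adjusted p = 0.0132). Hbb-bh1 was the higher gene, as described above. The globin Hba-x and the factors Gata1 and Klf1 did not pass.

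Primitive streak and mesoderm genes divided into a larger lower and a smaller higher group: 10 of 25 tested were lower and 4 higher (median -0.14). Without WS1442 replicate 2 and without replicate 3 the lower ones were 6, and the higher ones were 2 without replicate 1 or 2 of either treatment. Gsc, the organizer homeobox gene, differed by -1.03 ± 0.115 (12.02, 12.17 and 12.30 against 11.34, 11.21 and 10.84; adjusted p = 0.00123). Mixl1, Evx1 and Msgn1, transcription factors of the streak and the presomitic mesoderm, differed by -0.73, -0.65 and -0.51 (adjusted p = 0.00036, 0.000544 and 0.00357), and Eomes by -0.54. The mesenchymal factor Snai2 and the paraxial factor Foxc2 were higher by 0.66 and 0.65 (adjusted p = 0.00468 and 0.0049). The T gene, which encodes Brachyury, had an interval of -0.09 to 0.34.

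Lists for the other fates gave fewer or mixed differences. Of 20 pluripotency genes 5 were lower and 2 higher, with all 20 intervals within 2-fold. Dnmt3b and Tdgf1 were lower, at -0.39 and -0.37 and Dppa5a higher by 0.27, while Pou5f1 had an interval of -0.10 to 0.19. The lower ones were 3 without WS1442 replicate 2, WS1442 replicate 3 or MeOH eluate replicate 3, and the higher ones 5 without WS1442 replicate 1 and 1 without WS1442 replicate 3. Of 16 endoderm genes 5 were lower and 1, Cer1, was higher, with 3 lower without WS1442 replicate 3 or MeOH eluate replicate 3. Afp, the fetal plasma protein, and the apolipoprotein Apoa2 differed by -0.39 and -0.37. Of 19 neuroectoderm genes 4 were lower, with Zic2 and Dcx at -0.31 and -0.32, and the neuronal tubulin Tubb3 was higher by 0.27. Only 1 was lower without WS1442 replicate 3 or MeOH eluate replicate 3, and none was higher without replicate 2 or 3 of either treatment. Of 28 Hox genes tested of 39 on the array, 9 were lower and 2 higher (median -0.25). The lower ones were 2 without WS1442 replicate 3, 4 without MeOH eluate replicate 1 or 2 and 5 without WS1442 replicate 2 or MeOH eluate replicate 3. With both groups required to be well above background 7 of 25 Hox genes were lower, and with no filter on dim probes 2 of 39. The 9 include Hoxb6, whose p-value gives no support, as said above. Hoxd12 and Hoxb3 differed by -0.70 and -0.51 and Hoxb2 by 0.43 (adjusted p = 0.00163, 0.0138 and 0.00577), so neighbours within the B cluster differed in sign. Epithelial and mesenchymal genes gave 7 higher and 4 lower of 25. The higher ones were 4 without WS1442 replicate 3 or MeOH eluate replicate 3, and the lower ones 1 in each such fit but that without WS1442 replicate 1. The epithelial adhesion genes Cdh1 (13.38, 13.18 and 13.14 against 13.83, 13.76 and 13.98; adjusted p = 0.00151) and Cldn7 were higher by 0.62 and 0.43 and the keratin Krt18 by 0.30.

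**Figure D3:**
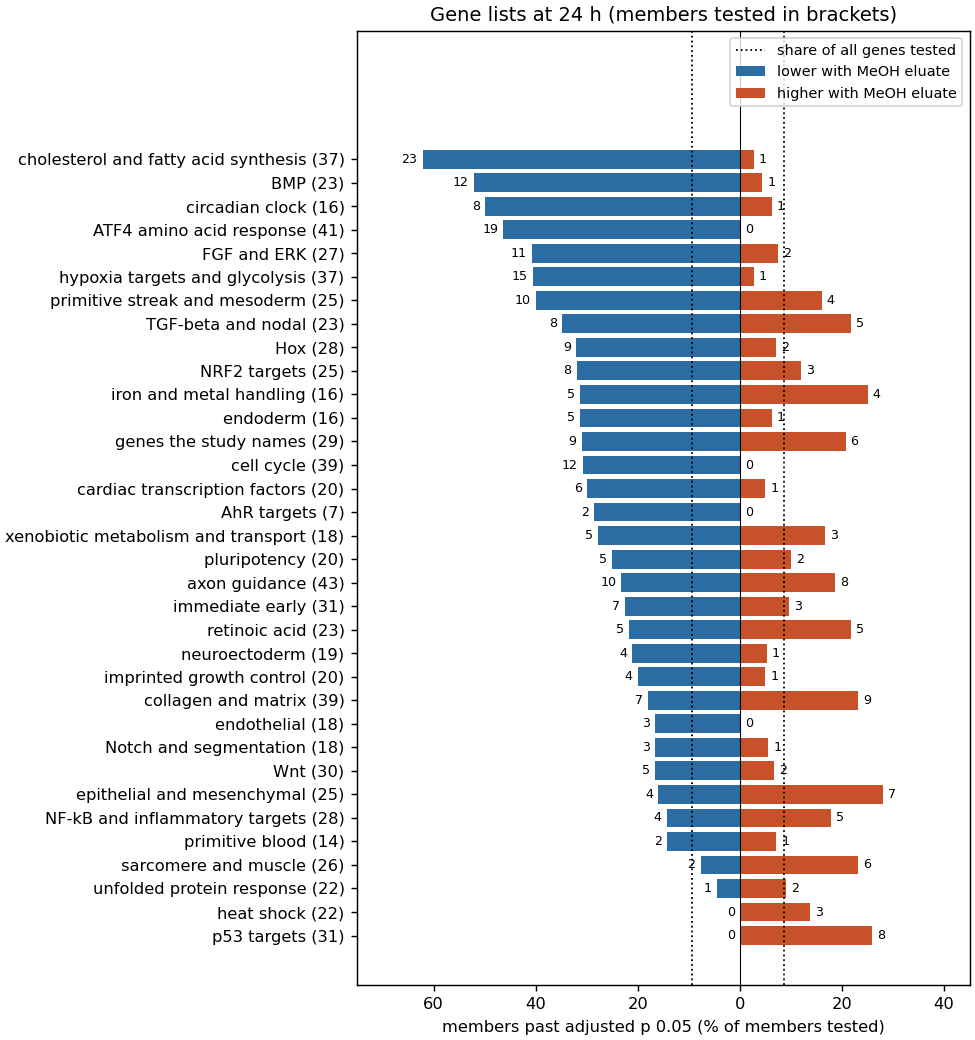
Share of the tested members of each gene list (horizontal, %) that were lower (blue, left) or higher (orange, right) with MeOH eluate at an adjusted p under 0.05, with the number of genes at the bar ends and the number tested in brackets. Dotted lines mark the 9.35% and 8.66% of all genes tested; cholesterol and fatty acid synthesis reached the largest lower share with 23 of 37.

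Leaving out 1 replicate lowered most of these counts, and many of the counts of 1 or 2 members were lost in that way. The lower members were then 9 to 12 for BMP, 14 to 17 for ATF4 targets, 10 to 16 for hypoxia and 6 to 7 for cardiac factors. The arrays that moved the count of another list by more than 1.5 times are named with that list. With Cy3 incorporation as a covariate each list had 0. All list counts are to be read beside the 9.35% lower and 8.66% higher of all genes tested, and counts near these shares say nothing about a list.

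Targets and components of the BMP pathway were lower with MeOH eluate in 12 of 23 cases and higher in 1 (median -0.32). The homeobox targets Msx2 (11.63, 11.70 and 11.90 against 10.94, 10.95 and 10.88) and Msx1 (12.84, 12.83 and 12.87 against 12.24, 12.22 and 11.98) differed by -0.82 and -0.70 (adjusted p = 0.000376 and 0.000544), and Gata3 by -0.65 (adjusted p = 0.00135). The groups did not overlap for any of these 3 genes, but they were named for their small p-values, so this adds no support. In the DMSO cultures Msx2 was at 12.12 and 12.09, above both treatments.

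Of 27 FGF and ERK pathway genes 11 were lower and 2 higher (median -0.18), with 7 lower without replicate 2 of either treatment. Etv4 and Etv5, ETS factors that FGF signals induce, differed by -1.0 ± 0.061 and -0.50 ± 0.054 (adjusted p = 8.49e-05 and 0.00105); Etv4 read 12.14, 12.27 and 12.34 with WS1442 and 11.33, 11.22 and 11.21 with MeOH eluate. The receptor gene Fgfr1 was higher by 0.38 (adjusted p = 0.0028). Among 30 Wnt genes, 5 were lower (3 without WS1442 replicate 2 or MeOH eluate replicate 1 or 2) and 2 higher (4 without WS1442 replicate 1). The ligand Wnt5b and the inhibitor Wif1 differed by -0.63 and -0.76 (adjusted p = 0.000764 and 0.00123), the inhibitor Dkk1 was higher by 0.90 (8.08, 8.01 and 7.74 against 8.71, 9.07 and 8.76; adjusted p = 0.00177) and the ligand Wnt4 by 0.51.

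The TGF-β and Nodal list held 8 lower and 5 higher genes of 23 (median -0.01), with 5 lower without WS1442 replicate 2, and with 2 lower and 3 higher without WS1442 replicate 3. Nodal itself was higher by 0.37 (adjusted p = 0.00584), next to Cer1 and Inhba, while the pseudoreceptor Bambi and the Nodal co-receptor Tdgf1 were lower, at -0.82 and -0.37. Retinoic acid genes were 5 higher and 5 lower of 23, and each fit that left out 1 array gave 4 to 6 higher and 1 to 3 lower, so the even split rested on all 6 arrays. The lower ones were 1 without WS1442 replicate 2 or 3 or MeOH eluate replicate 3, 2 without WS1442 replicate 1 or MeOH eluate replicate 2 and 3 without MeOH eluate replicate 1. The enzymes that make retinoic acid, Rdh10 (8.50, 8.32 and 8.35 against 9.22, 9.13 and 9.16, adjusted p = 0.000494) and Aldh1a2, were higher by 0.78 and 0.38. The targets Meis2 and Meis1 were higher by 0.48 and 0.54. Meis1 kept this direction in every alternative but the fit of all 16 arrays. There another probe was the brightest and differed by -0.33, so probes of Meis1 disagreed in sign. Cyp26a1, the enzyme that degrades retinoic acid, was lower, at -1.06 ± 0.10 (10.13, 10.13 and 10.36 against 9.31, 9.21 and 8.92; adjusted p = 0.000572). Of 18 Notch and segmentation genes 3 were lower (Dll4, Jag2 and Hey1, at -0.36, -0.33 and -0.62) and 1, Mesp2, higher, with 1 lower without WS1442 replicate 2 or 3. Axon guidance genes gave 10 lower and 8 higher of 43, with Sema3f at -0.60 and Sema3c, Sema3b and Sema6b at 0.69, 0.53 and 0.34. Without WS1442 replicate 3 these were 2 lower and 3 higher, 6 were lower without WS1442 replicate 2 or MeOH eluate replicate 2 or 3, and 5 were higher without MeOH eluate replicate 1 or 2. Of 20 imprinted genes 4 were lower and 1 higher, with Dlk1 at -0.75 (adjusted p = 0.00166), Igf2r at -0.40 and Nnat at 0.34, and 2 were lower without WS1442 replicate 3 or MeOH eluate replicate 2 or 3.

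Genes of cholesterol and fatty acid synthesis were the list with the most members lower. Of 37 tested 23 were lower and 1 higher, with a median difference of -0.22 and none over 2-fold. Nsdhl and Msmo1, enzymes that remove methyl groups from sterol intermediates, differed by -0.64 ± 0.060 and -0.46 ± 0.043 (both adjusted p = 0.000544). Nsdhl read 12.24, 12.27 and 12.45 with WS1442, 11.72, 11.69 and 11.64 with MeOH eluate, while the DMSO samples read 11.57 and 11.62. Msmo1 read 14.16, 14.13 and 14.24 against 13.74, 13.69 and 13.71, while the DMSO samples read 13.14 and 13.07. For both genes the MeOH eluate lay between DMSO and WS1442. Acaca and Elovl6, which start and lengthen fatty acids, differed by -0.39 and -0.44 (adjusted p = 0.00132 and 0.00138). The number lower was 17 to 22 when 1 replicate was left out.

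Hypoxia targets and glycolytic genes were lower in 15 of 37 cases and higher in 1 (median -0.20). Egln3 and Egln1, the prolyl hydroxylases that mark hypoxia-inducible factors for decay and are induced by them, differed by -0.77 ± 0.096 and -0.48 ± 0.073 (adjusted p = 0.00169 and 0.00334). Egln3 read 10.38, 10.34 and 10.49 against 9.64, 9.84 and 9.42. Pfkp and Ldha, a phosphofructokinase and lactate dehydrogenase, differed by -0.44 and -0.35 (adjusted p = 0.0022 and 0.00478). Target genes of ATF4, the factor that responds to a lack of amino acids, were lower in 19 of 41 cases and higher in none (median -0.14). Next to Chac1 these included Mthfd2 of mitochondrial folate metabolism (9.76, 9.83 and 9.81 against 9.19, 9.24 and 9.13; -0.61 ± 0.057, adjusted p = 0.000544), Psat1 of serine synthesis (-0.41) and the lipoprotein receptor Vldlr (-0.73). For Mthfd2 the DMSO cultures read 10.72 and 10.66, above both treatments.

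Since the members that differed in these 3 lists were nearly all lower, the 250 bases before their start sites (RefSeq, GRCm38.p6) were searched on both strands for the letters that their usual regulators bind; no match to one of the 3 motifs contains another. ACGTG, the core of the hypoxia response element, was found in 9 of the 13 lower hypoxia genes that have an entry and in 14 of the 33 with an entry in the whole list, against 16.6% of all 27025 promoters of this length and 19.4% of those of genes tested. TGATGNAA, the composite element of C/EBP and ATF factors, was found in 4 of 17 lower ATF4 targets and in 9 of 34 in the whole list, so that it was as frequent among members that were not lower, against 3.53% of all promoters. TCACNCCAC, a sterol regulatory element, was found in 1 of 17 lower cholesterol and fatty acid genes and in 1 of 25 in the whole list, against 1.04%. These are matches of letters, not sites. The lists were written from genes known as targets of these regulators or pathways. A share above that of all promoters therefore says nothing about the treatments. Whether lower members held a motif more often than other members was not tested. Windows of 80 bases around the match are shown for 8 lower members, chosen after the matches were seen, with the matches in capitals. CACGTG holds the core on both strands.
Bnip3 (chr7:138909564-138909643, minus strand): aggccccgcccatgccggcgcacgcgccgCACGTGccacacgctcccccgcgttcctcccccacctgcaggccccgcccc
Egln3 (chr12:54204045-54204124, minus strand): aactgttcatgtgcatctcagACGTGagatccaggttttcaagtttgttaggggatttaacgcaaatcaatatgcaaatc
Egln1 (chr8:124949273-124949352, minus strand): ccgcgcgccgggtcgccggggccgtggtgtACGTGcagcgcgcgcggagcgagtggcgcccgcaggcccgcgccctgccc
Ldha (chr7:46845724-46845803, plus strand): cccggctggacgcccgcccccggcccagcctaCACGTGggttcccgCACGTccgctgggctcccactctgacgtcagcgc
Chac1 (chr2:119351019-119351098, plus strand): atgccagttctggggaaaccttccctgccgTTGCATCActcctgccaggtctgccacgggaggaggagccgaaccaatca
Pycr1 (chr11:120643802-120643881, minus strand): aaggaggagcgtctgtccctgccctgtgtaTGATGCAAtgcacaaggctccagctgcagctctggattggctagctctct
Asns (chr6:7693210-7693289, minus strand): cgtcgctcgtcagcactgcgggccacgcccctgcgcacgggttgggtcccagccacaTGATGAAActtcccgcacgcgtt
Hmgcs1 (chr13:119690184-119690263, plus strand): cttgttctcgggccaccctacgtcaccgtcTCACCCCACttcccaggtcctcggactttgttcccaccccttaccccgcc
The differences of the genes among these not yet given were -0.87 for Bnip3, a mitophagy receptor, -0.72 for the proline enzyme Pycr1, -0.31 for asparagine synthetase Asns and -0.33 for Hmgcs1, the synthase before the rate-limiting step of cholesterol synthesis (adjusted p = 0.00763, 0.00292, 0.00339 and 0.00166).

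NRF2 targets, the antioxidant genes, were lower in 8 and higher in 3 of 25 cases, with a median of 0. Without WS1442 replicate 3 these were 5 and 0, and 1 was higher without any 1 of the MeOH eluate arrays. Pgd and G6pdx of the pentose phosphate pathway differed by -0.34 and -0.35, the autophagy receptor Sqstm1 by -0.38 and the ferritin heavy chain Fth1 by -0.31. Of 7 targets and partners of the aryl hydrocarbon receptor tested, 2 were lower, Aldh3a1 and Tiparp, at -0.54 and -0.26, with 1 lower without WS1442 replicate 3 or MeOH eluate replicate 1 or 3. Xenobiotic metabolism and transport genes gave 5 lower, with Cyp2s1, Tpmt and Abcc1 at -0.57, -0.29 and -0.23, and 3 higher, with the reductase Akr1b8 at 0.26, of 18. Abcc1 changed sign when all its probes were averaged. The higher ones were 0 or 1 in each fit that left out 1 array (1 without WS1442 replicate 1 or MeOH eluate replicate 2), and the lower ones 2 without WS1442 replicate 2 or MeOH eluate replicate 2 or 3 and 3 without WS1442 replicate 3. Iron and metal genes gave 5 lower and 4 higher of 16, among them the metal importer Slc39a14 at -0.75 (adjusted p = 0.0021), the zinc exporter Slc30a1 at -0.42 and the transferrin receptor Tfrc at -0.25. The higher ones were 1 without WS1442 replicate 3 and 2 without WS1442 replicate 2 or MeOH eluate replicate 2 or 3. Clock genes were lower in 8 and higher in 1 of 16 cases (median -0.30), with Cry1, Per1, Npas2 and Ciart between -0.46 and -0.39, and 5 were lower without WS1442 replicate 2 or 3. Of 39 cell cycle genes 12 were lower and none higher (median -0.09), with 6 lower without WS1442 replicate 3 or MeOH eluate replicate 2 and 7 without MeOH eluate replicate 1 or 3. Cdc45, Cdc20 and the cyclin Ccnd2 differed by -0.34, -0.35 and -0.37, and the topoisomerase Top2a by -0.29 at its brightest probe and by 0.0769 over the mean of its probes.

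Lists of protein stress differed little, while p53 targets were higher where they differed. Of 22 genes of the unfolded protein response 2 were higher (Pdia3 and Hspa5, by 0.38 and 0.18) and 1 lower (Herpud1, by -0.24), and of 22 heat shock genes 3 were higher (Hspb8, Ahsa1 and Dnaja1, by 0.30, 0.17 and 0.19). All 44 intervals lay within 2-fold. Without WS1442 replicate 3 each list had 1 higher gene, and the former also without WS1442 replicate 2 or MeOH eluate replicate 1 or 2. Of 31 p53 targets 8 were higher and none lower (median 0.13), with 5 higher without replicate 3 of either treatment. Trp53inp1, an autophagy and cell death protein, read 11.44, 11.37 and 11.34 with WS1442 and 11.88, 11.84 and 12.07 with MeOH eluate (0.55 ± 0.064, adjusted p = 0.00147), and Plk2, Phlda3 and Ei24 were higher by 0.52, 0.40 and 0.36. Immediate early genes gave 7 lower and 3 higher of 31, with Maff, Klf10 and Myc at -0.59, -0.54 and -0.44 and Ccn1 at 0.30, and 4 were lower without MeOH eluate replicate 3. NF-κB and inflammatory targets gave 4 lower and 5 higher of 28; besides Ccl20, the lower ones included Nfkbiz and Icam1 at -0.78 and -0.38, and the inhibitor Nfkbie was higher by 0.47. None was higher without MeOH eluate replicate 3, 1 was without WS1442 replicate 3 (with 2 lower), 2 were without WS1442 replicate 1 or MeOH eluate replicate 1, and 3 without WS1442 replicate 2. Of 39 collagen and matrix genes 9 were higher, with Hspg2, Spp1, Sparc and Mmp14 at 0.51, 0.42, 0.30 and 0.30, and 7 lower, and all 39 intervals lay within 2-fold. Without WS1442 replicate 3 these were 4 higher and 2 lower, 5 were higher without MeOH eluate replicate 3, and 4 and 3 were lower without WS1442 replicate 2 and MeOH eluate replicate 1.

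Of the 31 genes that the study singles out, 29 were tested and 15 differed between the treatments, 6 higher and 9 lower with MeOH eluate; the list was chosen on these samples and is no independent evidence of a direction. Without WS1442 replicate 3, 5 were lower. Lzts1, a leucine zipper gene, read 10.33, 10.34 and 10.34 with WS1442 and 9.49, 9.37 and 9.33 with MeOH eluate (-0.94 ± 0.058, adjusted p = 8.49e-05). The T-box genes Tbx2 and Tbx3 differed by -0.77 and -0.61, the proteoglycan Bgn by -0.53 and the protease Adamts9 by -0.48. Smaller lower differences were those of Zeb1 (-0.26), Cdh11 (-0.23) and Zc3h12a (-0.19). Zeb1, Cdh11 and Zc3h12a lost the call in 11, 16 and 12 of 21 alternatives. Higher were Casp4 as above, Foxc2 by 0.65, the motor protein gene Myo6 by 0.45, Aldh1a2 by 0.38 and the stress factor Atf3 by 0.27 (adjusted p = 0.0114). Aldh1a2 read 8.91, 8.79 and 9.01 with WS1442, 9.43, 9.18 and 9.24 with MeOH eluate, whereas the DMSO samples read 6.46 and 6.57, so the treatments lay close to each other and far from the control. Lefty1, Foxq1, Il7, Mag, Col1a1, Fgf3, Anpep, Traf1, Nfkbid and Acta2 did not pass, and for Fgf3 and Col1a1 the intervals were -0.22 to 0.25 and -0.25 to 0.17.

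The cultures treated for 6 h show whether the difference between the agents was there earlier. They were on the other slide, so levels are not compared across times, only the difference within each. On the same probes, 1374 genes were higher with MeOH eluate at 6 h (5.2%) and 1997 lower (7.55%), and the difference itself changed between 6 h and 24 h for 5137 genes (19.4%) at an adjusted p under 0.05 (limma, interaction). In the fit of all genes measured at either time, the difference was the more positive at 24 h for 55.8% of the genes that changed, and for 70.6% under 75th percentile scaling. Lmo2, Gata6, Fgf10 and Cyp26a1 differed at 6 h by -1.05, -1.18, -1.0 and -0.84, as at 24 h, and their change with time did not pass (adjusted p = 0.747, 0.873, 0.637 and 0.271). Chac1 was likewise lower at 6 h (-0.98, adjusted p of the change = 0.138) and Pcdh19 higher (1.01, 0.555). Etv2 and Bace2 differed by -0.31 and -0.18 at 6 h, and for both the change was past the threshold (adjusted p = 0.000533 and 2.44e-05). Both were named for their large difference at 24 h, which enters the change, so these p-values are no independent support.

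The cholesterol list had the other direction at 6 h: 10 of its 37 members were higher with MeOH eluate and none lower (median 0.04), and 24 members passed the interaction test. Msmo1 was higher by 0.27 at 6 h, against -0.46 at 24 h. Hypoxia genes were 5 higher and none lower at 6 h, with 17 of 37 past the interaction test, and clock genes 2 higher and none lower, with 7 of 16. ATF4 targets were 8 lower and 2 higher at 6 h and BMP genes 4 lower and 1 higher. Streak and mesoderm genes had 12 lower and 5 higher at 6 h, with a median of -0.37, and NF-κB targets 12 higher and none lower with a median of 0.24. The count of genes whose difference changed over 2-fold was 219 of the 28151 in that fit, and it was 634 without WS1442 6h replicate 1, 101 without WS1442 24h replicate 3 and 129 without MeOH eluate 6h replicate 3.

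**Figure D4:**
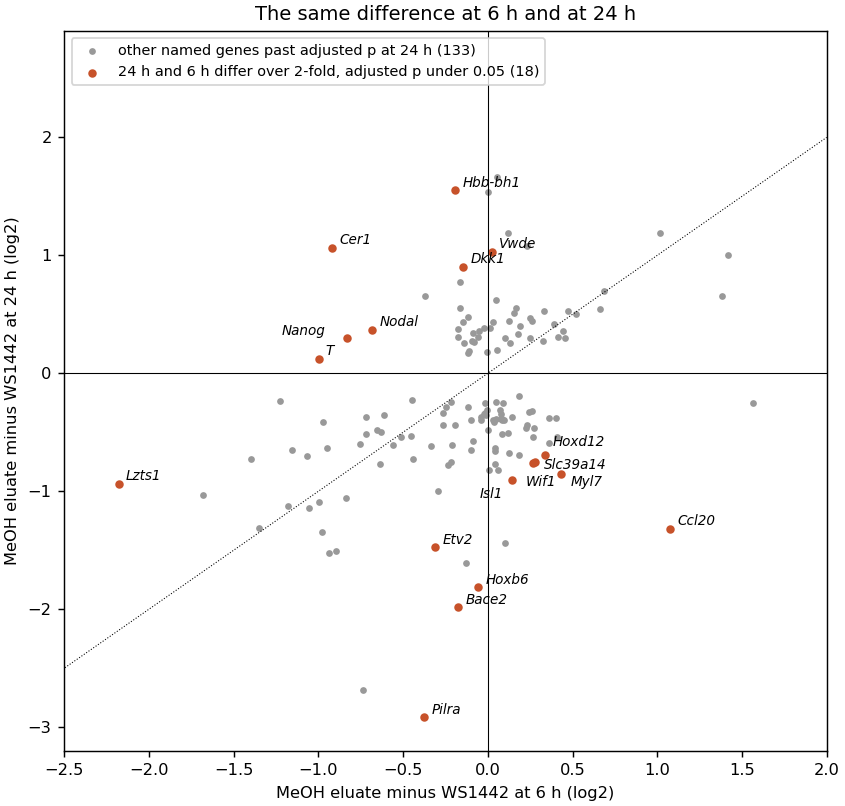
Difference between MeOH eluate and WS1442 at 6 h (log2, horizontal) and at 24 h (log2, vertical) for the named genes past an adjusted p of 0.05 at 24 h, and T and Nanog; the 18 orange genes changed between the times over 2-fold at an adjusted p under 0.05. Genes on the dotted line differed equally at both times; Cer1 lies above 0 only at 24 h and Ccl20 only at 6 h.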

How the data were processed

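The authors scanned 1-colour Agilent arrays (Cy3) with Feature Extraction 11.5.1.1 and deposited the scanner files, which hold intensity per spot, together with a table of linear intensity that they had quantile normalized over all 16 samples; per the file headers the design was annotated on mm9. Here the background-subtracted processed intensity was taken from the deposited scanner files, control and non-uniform spots were left out, log2 values were averaged per probe and quantile normalized over the 16 arrays. Probes were named through RefSeq (43081 of 60273 gene probes matched a gene); all others kept the name in the file. A probe was kept if all 3 arrays of either group showed it well above background, and the brightest stood for its gene. The 6 arrays were fitted with group means in limma 3.58.1 (R 4.3.3) with an intensity trend, and p-values were adjusted by Benjamini-Hochberg over all genes tested; the difference between the times used the 12 treated arrays in the same way, and the script was tested on simulated data. Where no array of a group was well above background at any probe of a gene, the fold is a bound: the mean of the brighter group against the higher of the array's lowest signal well above background and the dim signal. The number of arrays limits the precision.

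The genes named were the 12 largest differences per direction past an adjusted p of 0.05 and 2-fold with groups that do not overlap and a symbol that is not a clone or predicted name, up to 4 members with the smallest p per list, the genes the study names and cell type markers; other names were chosen after their values were seen. The members and lists were chosen with earlier results of these data known. The replicate numbers did not pair the samples. Alternatives were 75th percentile scaling, quantile normalization of the 6 arrays, normexp with an offset of 50, the authors' table, 2 other filters, the mean of probes, other sets of arrays, no trend, Student's t-test, a replicate block, array weights, the first number of the slide position, Cy3 incorporation and leaving out each replicate. The study's methods name that t-test in general but no test for the arrays.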

Additional observations from a re-analysis of the deposited data

Results flagged for a closer look

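For 18 named genes the difference between MeOH eluate and WS1442 at 24 h departed over 2-fold from that at 6 h, with an adjusted p under 0.05 (limma, interaction over the 12 treated arrays). They are part of 91 of the 193 named genes whose difference changed at that adjusted p; since part of them were named for their values at 24 h, which enter this difference, that share is not set against other genes. Values are the difference at 24 h minus that at 6 h on the log2 scale. It was more negative at 24 h for Pilra (-2.54), Ccl20 (-2.39), Bace2 (-1.81), Hoxb6 (-1.76), Myl7 (-1.29), Etv2 (-1.16), Isl1 (-1.05), Hoxd12 (-1.04), Slc39a14 (-1.03) and Wif1 (-1.02). Of these, Ccl20 was higher with MeOH eluate at 6 h (1.07) and lower at 24 h (-1.32), both past the threshold. Pilra was well above background on 0 and Hoxb6 on 1 of the MeOH eluate arrays at 24 h. Their changes and p-values rest on readings at or near background, so the size is not known and they give no support.

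The change was in the other direction for Vwde (1.01), Nodal (1.05), Dkk1 (1.05), T (1.12), Nanog (1.13), Lzts1 (1.24), Hbb-bh1 (1.74) and Cer1 (1.98). Vwde was well above background on 1 of the WS1442 arrays at 24 h, so the limit given for Pilra and Hoxb6 holds for it too. For Lzts1 the level was lower with MeOH eluate at both times, with differences of -2.18 at 6 h and -0.94 at 24 h. Cer1 and Nodal were lower at 6 h (-0.92 and -0.68) and higher at 24 h (1.07 and 0.37). For T and Nanog the difference passed at 6 h (-1.0 and -0.83) and not at 24 h (0.12 and 0.30). Time point and slide cannot be told apart, and the dye incorporation separated the 2 groups at 24 h but not at 6 h; its part in these values was not tested.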

How the results depend on the processing

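The count of 4762 genes at an adjusted p under 0.05 was 1782 with no filter on dim probes and 1939 without the trend in the variance prior. By Student's t-test it was 227 (7584 at an unadjusted p under 0.05). With Cy3 incorporation as a covariate it was 0 (limma, 1734 unadjusted), where the groups do not overlap in the covariate. The count was 1689 to 4752 when 1 replicate was left out. The replicate numbers showed no pairing (correlations of deviations 0.0388, 0.134 and -0.0369; 2 of 6 arrays correlated best with their own number), and the replicate block gave 3039 genes and 54 over 2-fold. The 53 genes over 2-fold became 9 with normexp (0 of them higher), whose offset compresses dim signals, 103 with no filter, 29 above background in both groups, 9 by the t-test (0 higher), 0 with Cy3 (243 at an unadjusted p) and 32 to 82 without 1 replicate; the share of higher genes fell from 35.8% to 23.7% with slide position as a block, and was 20% to 51% without 1 replicate. For the change between 6 h and 24 h, 4953 genes became 2525 to 6262 and the 219 over 2-fold became 101 to 634 without 1 replicate and 30 with normexp; 75th percentile scaling moved the share of higher genes from 55.8% to 70.6%. The 25497 intervals within 2-fold became 20011 with Cy3, 34123 with no filter (of 44864 genes tested) and 24332 to 26385 in the other alternatives. Of the 149 named genes called, Nxf7 (0.26, another probe, with no filter), Hey1 (0.14), Tubb3 (-0.007) and Cnn1 (-0.0118) with Cy3, Top2a (0.0769) and Abcc1 (0.28) with averaged probes, and Meis1 (-0.33, another probe, in the fit of all 16 arrays) changed sign. Of these 149, 128 lost the call by the t-test, 149 with Cy3, 55 with no filter, 38 without the trend and 0 to 32 in each of the others. The causes were not tested.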
